A study of Mus musculus with 6 samples.

Results

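The genes described here are p53, its transcriptional targets and the regulators of apoptosis, in mouse glioblastoma (GBM) neurosphere cultures that carry a knockdown of p53 in both groups. The list holds 50 genes named for their function. Of these, 48 are among the 13069 genes of the deposited table, and 47 passed a filter on low values that left 12201 genes to test. Perp and Bik have no row in the table and were not analysed here, and Bmf was measured but lay under the filter.

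The ATRX knockout group (ATRX KO) and the ATRX wild-type group (ATRX WT) had 3 libraries each. Per the labels, tumours were raised in neonatal C57BL/6 or FVB mice by Sleeping Beauty transposon plasmids delivered to the ventricles, and every culture carries a short hairpin against p53 together with overexpressed NRAS. A further plasmid with a short hairpin against ATRX was present or absent, while the genotype label reads knockout, so which form of ATRX loss the cells carry is not settled by the labels. The labels do not tie either culture to a strain. The medium was one for neural stem cells, supplemented with B-27 and N-2 and with the growth factors EGF and FGF. The 3 libraries of a genotype carry the same line code in their titles, so ATRX status and cell line cannot be told apart, and p-values measure the spread between libraries that may be technical repeats.

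p53 is a transcription factor that is held low by the ubiquitin ligase Mdm2 and its partner Mdm4, and that upon DNA damage switches on genes of cell cycle arrest, repair and death. Many of its death genes act on the BCL2 family, in which BH3-only proteins neutralise pro-survival members and so free the pore formers Bax and Bak1 to open the outer mitochondrial membrane. Cytochrome c then builds the apoptosome from Apaf1 and Casp9, and IAP proteins restrain the caspases. A separate route runs from death receptors such as Fas through Fadd to Casp8, with Cflar as its brake. In glioma the p53 pathway is among the most often disabled.

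Levels are in RPKM, the read number divided by gene length and library size, and group levels are the mean ± SD over 3 libraries. The library sizes recovered from the deposited values were 0.932 to 0.935 times the reads in the table for ATRX KO. For ATRX WT they were 1.07 times those reads. The words rose and fell are kept for genes with a Benjamini-Hochberg adjusted p under 0.05 when limma was fitted to the log2 RPKM of all 12201 genes. A positive log2 fold change means a higher level in ATRX KO. Reads in the table totalled 22177228 to 32477269 for the ATRX KO libraries, and for ATRX WT 34966108 to 38039847. Atrx itself stood at 14.1, 16.6 and 17.1 RPKM in ATRX KO and at 22.3, 22.7 and 21.6 RPKM in ATRX WT (log2 fold change -0.48, adjusted p = 0.00013), so its transcript was lower but present in every library. Nras stood at 172 to 181 RPKM in ATRX KO and 120.3 to 122 RPKM in ATRX WT (log2 fold change 0.55).

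The cultures differed across most of the transcriptome, which sets the scale for the members. Of all genes tested, 89.5% passed the threshold, 43.6% as rises and 45.9% as falls. Of the 47 members tested, 26 rose (55.3%) and 14 fell (29.8%), so that 85.1% passed and 7 gave no call. The members' median log2 fold change was 0.25, against -0.02 over all genes tested. Taking library size as the reads in the table lowered the median of all genes by a log2 shift of -0.20. The members then split into 23 rises and 20 falls. Rises were 53.5% of the members that passed under that scaling, beside 39.6% of all genes that passed. In the fit reported these shares were 65% and 48.7%. By log2 1 or more, 16 members changed (34%, beside 36.8% of all genes), of which 12 rose (25.5%, beside 17.2%) and 4 fell (8.51%, beside 19.6%). The groups did not overlap for 41 members (87.2%), beside 90.5% of all genes. Hrk, Birc3, Fas and Casp8 passed the filter through ATRX KO alone, so being tested already required a difference of them.

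**Figure D1:**
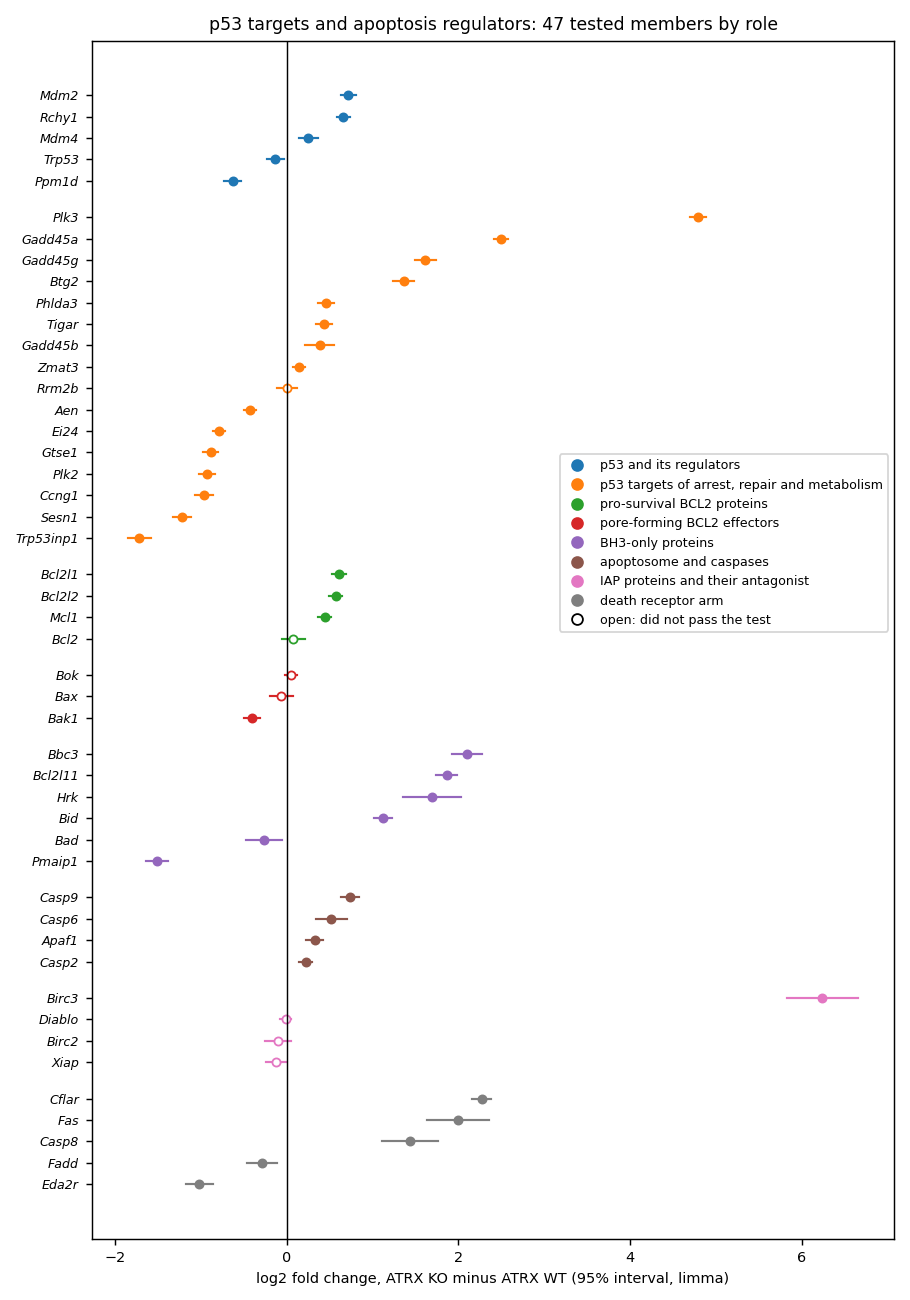
Log2 fold change (ATRX KO minus ATRX WT) of the 47 tested members with 95% limma intervals, grouped by role; filled points passed the test and open points did not. Birc3 (6.24) and Plk3 (4.79) lie far to the right of the other members, and Trp53inp1 (-1.71) and Pmaip1 (-1.51) furthest to the left.

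Markers of cell type moved with the genotype as well. Many of them passed the filter on low values through 1 group alone, which already required a difference, so their levels are given as a description. The summed level of 10 fibroblast and mesenchymal markers ran from 1577 to 1728 RPKM in ATRX KO against 7.87 to 8.18 RPKM in ATRX WT. Of these, 8 were tested, 7 of them through ATRX KO alone, while Fn1 passed through both groups and rose. Under the filter, Col1a2 was higher in ATRX KO (means of 0.635 and 0.0555 RPKM) and Thy1 lower (0.656 and 1.12 RPKM). The neural stem cell and glial markers with a row, 10 of 12, summed to 117 to 127 RPKM in ATRX KO against 3358 to 3425 RPKM. Of these, 5 passed through ATRX WT alone, and of those that passed through both groups Nes, Sox2 and Slc1a3 fell while Pdgfra and Cspg4 rose. Olig1, which passed through ATRX WT alone, had 0 reads in ATRX KO, where Nes (26.6 to 30.3 RPKM) and Sox2 (18.7 to 20.6 RPKM) were still present. Gfap and Hes5 have no row in the table for either group, so they do not tell the groups apart. The neuronal markers with a row, 7 of 8, summed to 6.22 to 6.34 RPKM against 56.7 to 57.9 RPKM. Of the 6 tested, 5 passed through ATRX WT alone, and Tubb3, which passed through both, fell. Of 8 microglia and macrophage markers 2 had a row, Cd68, which rose, and Tmem119, which passed through ATRX KO alone (sums of 30.6 to 35.1 against 5.60 to 6.36 RPKM). Ptprc, Aif1, Csf1r, Itgam, C1qa and P2ry12 had none. Of 6 endothelial markers, Cdh5 and Emcn passed through ATRX KO alone, Kdr was under the filter, and Pecam1, Tek and Cldn5 had no row (sums of 14.5 to 16.5 against 0.491 to 0.748 RPKM). In bulk RNA, fewer cells of a type and less RNA per cell cannot be told apart, and the part of these differences in the results below was not tested.

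p53 transcript differed little between the groups, and its regulators moved in both directions. Trp53 (chromosome 11, 69580359 to 69591873, GRCm38) stood at 12.3, 11.7 and 11.2 RPKM in ATRX KO and at 12.7, 12.8 and 13.1 RPKM in ATRX WT. The groups did not overlap, by a small margin, with ATRX KO the lower. The means were 11.8 ± 0.559 and 12.9 ± 0.198 RPKM, a fall of 0.13 on the log2 scale (SE 0.044, 95% interval -0.23 to -0.03, adjusted p = 0.018). Leaving out replicate 3 of ATRX KO, or replicate 3 of ATRX WT, raised the adjusted p to 0.063 and ended the call. With library size as the reads in the table Trp53 was lower by more (-0.33, adjusted p = 7.4e-05), and the alternatives as a whole ran from 7.4e-05 to 0.063. Both groups carry the hairpin and no library without it is among the samples, so the depth of the knockdown was not measured here.

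Mdm2, the ligase that marks p53 for degradation and itself a p53 target, was the member of this set with the largest rise. Its level was 43.3, 40.8 and 41.1 RPKM in ATRX KO and 26.4, 24.6 and 25.1 RPKM in ATRX WT, with no overlap (log2 fold change 0.72, SE 0.037, adjusted p = 1.2e-07). Set against p53 transcript in the same library, Mdm2 was 3.55 ± 0.0934 times Trp53 in ATRX KO and 1.97 ± 0.0892 times in ATRX WT, a ratio given, like the ratios further on, without a test. Rchy1, another ubiquitin ligase of p53, stood at 24.9 to 25.9 RPKM against 15.8 to 16.3 RPKM (log2 fold change 0.66). Exons of Rchy1 and Thap6, on opposite strands, share 680 bases, 18% of the Rchy1 exons, and whether the counting used strand is not given in the sources used here. Mdm4, which blocks the activating domain of p53, stood at 20.3, 22.8 and 22.7 RPKM against 18.1, 18.7 and 18.3 RPKM (log2 fold change 0.25, adjusted p = 0.00093), a value of 0.16 after quantile normalization and a call lost with library size as the reads in the table (0.06, adjusted p = 0.29, the alternatives running from 2.6e-05 to 0.29). Ppm1d, the phosphatase Wip1 that reverses damage signalling, went the other way, at 7.21, 7.54 and 7.07 RPKM in ATRX KO and 11.0, 11.4 and 11.2 RPKM in ATRX WT (log2 fold change -0.62, adjusted p = 8.8e-07). All 5 genes of this set passed, 3 as rises and 2 as falls, and none by log2 1, where 89.5% of all genes tested passed.

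The letters that p53 recognises were then looked for in the members' promoters, because a shared element is what p53 targets are known by. The p53 consensus decamer, a palindrome that reads alike on both strands, was searched in RefSeq promoter windows (GRCm38.p6) of 250 bases before to 50 after a start. At least 1 exact copy was found for 13 of the 44 members with a window (29.5%) and for 9.55% of all 27025 symbols in that table. Pairs of decamers, separated by up to 13 bases, were allowed at most 2 mismatches in their 20 bases. The fixed C and G of each decamer had to match, so mismatches lay at the other bases. Such a pair was found for 6 of the 44 members (13.6%) and for 4.71% of all symbols. The printed windows show such pairs in 5 members whose results differ, 5′ to 3′ on the strand of the gene, with the decamers in capitals. For Gtse1, whose pair reaches past the RefSeq start of its window, the pair alone is shown.
Ccng1: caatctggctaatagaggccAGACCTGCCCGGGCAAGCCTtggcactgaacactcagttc
Gtse1: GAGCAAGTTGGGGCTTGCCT
Sesn1: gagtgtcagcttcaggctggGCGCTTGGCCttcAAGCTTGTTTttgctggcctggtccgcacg
Bax: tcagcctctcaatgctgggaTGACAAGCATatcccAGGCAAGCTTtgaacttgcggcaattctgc
Gadd45a: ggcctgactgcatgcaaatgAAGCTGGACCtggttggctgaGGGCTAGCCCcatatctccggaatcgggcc
These windows lie at chr11:40755442-40755501 (minus strand), chr15:85859945-85859964 (plus), chr10:41887233-41887295 (plus), chr7:45467070-45467134 (minus) and chr6:67037418-67037488 (minus). The Ccng1 and Gtse1 pairs have 1 mismatch each and no spacer, and the other pairs have 2 mismatches. The sixth member with such a pair was Casp2. The RefSeq starts can differ from the outer bounds of the genes. The Sesn1 window and the Gtse1 pair lie within their genes (41809935 to 41908424 and 85859745 to 85876573). The Gadd45a window crosses the 5′ end of its gene, at 67037457. Ccng1, Gtse1 and Sesn1 fell, Gadd45a rose and Bax gave no call, with values below. Of the 13 members with an exact decamer 12 were tested, of which 3 rose (Gadd45a, Mdm2 and Rchy1), 7 fell and 2 gave no call, beside 43.6% rises and 45.9% falls over all genes. Trp53 is among the 7, and its call ended when either of 2 libraries was left out. A match is a description of letters and does not show binding. Sequence outside the windows was not searched, and the targets Bbc3, Btg2, Plk2, Plk3, Phlda3 and Fas had no exact decamer within them. Pmaip1, Trp53inp1, Rrm2b and Zmat3 had no window. The split of rises and falls therefore does not set genes with a p53 element apart from those without.

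Of the 17 targets of arrest, repair and metabolism, 16 were tested, of which 8 rose, 7 fell and 1 gave no call. The rises were 50% and the falls 43.8%, beside 43.6% and 45.9% of all genes tested. The median was 0.08, so the set had no common direction. Plk3, a stress-responsive kinase of the polo family (chromosome 4, 117128655 to 117133963), stood at 117, 108 and 114 RPKM in ATRX KO and at 3.94, 4.2 and 4.1 RPKM in ATRX WT. The groups were 27.7-fold apart (log2 fold change 4.79, SE 0.041, adjusted p = 4.4e-12). Its relative Plk2, also a p53 target, moved the opposite way, at 43.4, 48.2 and 44.5 RPKM against 85.3, 87.0 and 85.5 RPKM (log2 fold change -0.92, SE 0.040, adjusted p = 3.3e-08). Plk3 was 2.5 ± 0.241 times Plk2 in ATRX KO and 0.0475 ± 0.0011 times in ATRX WT, so the more abundant of the pair was a different gene in each culture.

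The Gadd45 genes, small stress proteins that bind Cdk1 and PCNA, rose together. Gadd45a stood at 272, 250 and 269 RPKM in ATRX KO and 46.3, 46.0 and 47.6 RPKM in ATRX WT (log2 fold change 2.5, SE 0.037, adjusted p = 5.2e-11). It was the member with the highest level in ATRX KO. Gadd45g stood at 44.6, 38.3 and 39.96 RPKM against 13.4, 13.5 and 13.2 RPKM (log2 fold change 1.61, adjusted p = 5.6e-09). Gadd45b was the lowest of the 3, at 5.61, 4.75 and 5.46 RPKM against 4.01, 3.9 and 4.17 RPKM (log2 fold change 0.39, adjusted p = 0.0009), a value of 0.19 with library size as the reads in the table and of 0.60 after quantile normalization. Gadd45a made up 85.1% ± 0.604 of the summed RPKM of the 3 genes in ATRX KO and 72.8% ± 0.361 in ATRX WT. Exons of Gadd45a share 337 bases with the opposite-strand gene E230016M11Rik, whose own mean log2 RPKM was -0.02 in ATRX KO and 0.24 in ATRX WT.

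Btg2, an antiproliferative co-factor of mRNA deadenylation, stood at 10.6, 10.7 and 10.4 RPKM in ATRX KO and 4.31, 4.17 and 3.87 RPKM in ATRX WT (log2 fold change 1.36, SE 0.053, adjusted p = 1.6e-08). Btg2, Plk3 and the Gadd45 genes are also known as stress-induced genes, and a list of immediate early and stress genes moved beside them. Of 10 such genes 9 were tested, 7 rose (Hspa1b after passing the filter through ATRX KO alone) and 2 fell (Fos and Dnajb1). These are 77.8% and 22.2%, beside 43.6% and 45.9% of all genes tested. The sum of the 10 stress genes ran from 693 to 745 RPKM in ATRX KO and 288 to 297 RPKM in ATRX WT. Its mean was 2.47 times as high in ATRX KO, beside 1.19 times for the sum of all genes tested. Their part in these rises was not tested. Smaller rises were seen for Phlda3, a repressor of Akt (0.46), Tigar, which diverts glucose into the pentose phosphate route (0.44), and Zmat3, an RNA-binding protein (0.14). With library size as the reads in the table these were 0.26 for Phlda3 and 0.24 for Tigar. The Zmat3 call was lost after quantile normalization (0.05, adjusted p = 0.16), and with library size as the reads in the table its difference turned to -0.05 (adjusted p = 0.14, the alternatives running from 0.00037 to 0.16).

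**Figure D2:**
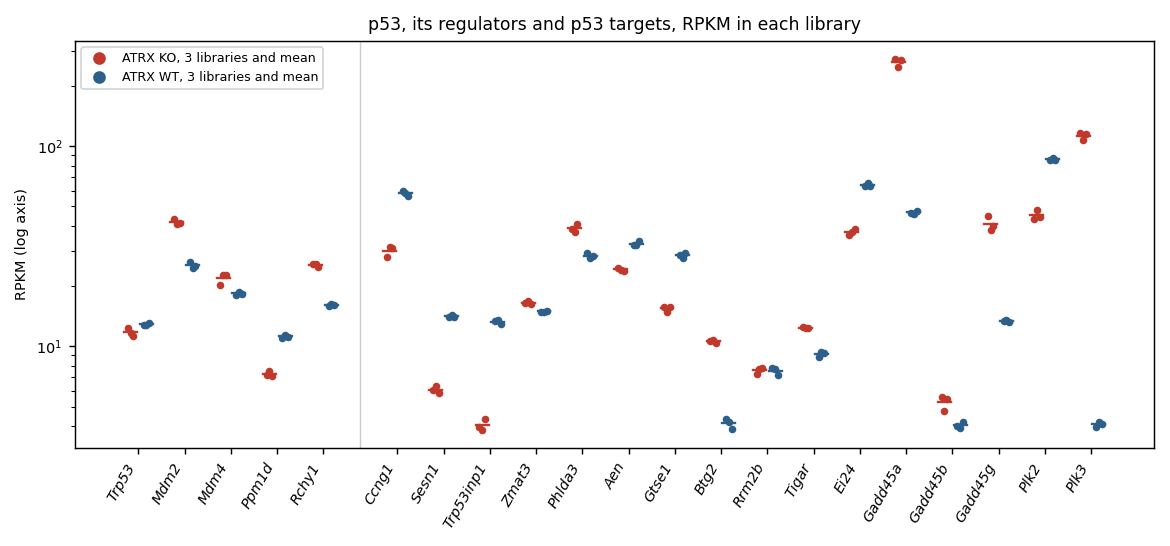
RPKM (log axis) of p53, its 4 regulators and 16 of its targets in each of the 3 ATRX KO and 3 ATRX WT libraries, with the mean of each group as a bar. Plk3 separates the groups by 27.7-fold, Gadd45a reaches 272 RPKM in ATRX KO, and the Trp53 groups lie next to each other at 11.2 to 13.1 RPKM.

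The falls were smaller than the largest rises and included several long-known p53 targets. Trp53inp1, a co-factor of p53 in autophagy and death, stood at 3.96, 3.83 and 4.33 RPKM in ATRX KO and 13.3, 13.6 and 12.9 RPKM in ATRX WT (log2 fold change -1.71, SE 0.057, adjusted p = 5.8e-09). Sesn1, a brake on mTORC1, stood at 6.02, 6.36 and 5.85 RPKM against 14.1, 14.3 and 14.0 RPKM (-1.22, SE 0.044, adjusted p = 1.1e-08). Ccng1, the atypical cyclin G1, whose promoter pair is printed above, stood at 28.0, 31.2 and 30.8 RPKM against 59.9, 58.5 and 56.6 RPKM (-0.96, SE 0.045, adjusted p = 6.2e-08). In none of the 3 did the groups overlap, as in 90.5% of all genes tested. Gtse1, a mitotic protein that moves p53 out of the nucleus, fell by 0.88 on the log2 scale, Ei24, an endoplasmic reticulum protein, by 0.78, and the exonuclease Aen by 0.43. Rrm2b, the p53-driven subunit of ribonucleotide reductase, stood at 7.30, 7.73 and 7.79 RPKM against 7.76, 7.72 and 7.20 RPKM and did not pass (log2 difference 0.01, 95% interval -0.11 to 0.13).

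Among pro-survival BCL2 proteins 3 of 4 rose and none fell, beside 43.6% rises and 45.9% falls over all genes tested. Bcl2l1, which encodes Bcl-xL, stood at 47.7, 46.7 and 44.3 RPKM in ATRX KO and 30.3, 29.8 and 30.9 RPKM in ATRX WT (log2 fold change 0.61, SE 0.034, adjusted p = 2.1e-07). Bcl2l2, which encodes Bcl-w, stood at 23.4, 24.8 and 24.5 RPKM against 16.3, 16.3 and 16.4 RPKM (0.57, SE 0.033). Mcl1, a short-lived guardian of mitochondria and the highest of the 4 in every library, stood at 67.6, 71.3 and 72.9 RPKM against 52.6, 52.0 and 51.3 RPKM (0.44, SE 0.033). The groups did not overlap for any of the 3, as for 90.5% of all genes tested. With library size as the reads in the table the values were 0.37 for Bcl2l2 and 0.245 for Mcl1, and quantile normalization gave 0.28 for Mcl1. Bcl2 itself was the lowest of the 4, at 4.25, 4.26 and 4.03 RPKM against 4.08, 3.89 and 3.89 RPKM, and did not pass (0.08, 95% interval -0.05 to 0.21). After quantile normalization Bcl2 was higher by 0.34 (adjusted p = 0.0003), and with library size as the reads in the table the difference was -0.12 (adjusted p = 0.078, the alternatives running from 0.0003 to 0.36). The 4 genes summed to 143 to 147 RPKM in ATRX KO and 102 to 103 RPKM in ATRX WT. The mean of this sum was 1.42 times as high in ATRX KO, beside 1.19 times for the sum of all genes tested.

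Of the pore formers Bak1 fell, and Bax and Bok did not pass. Bax, the highest of the 3, stood at 131, 111 and 120 RPKM in ATRX KO and 124, 123 and 132 RPKM in ATRX WT, so the groups overlapped (log2 difference -0.06, 95% interval -0.19 to 0.07, adjusted p = 0.35). Bax was lower without ATRX KO replicate 1 (-0.12, adjusted p = 0.031), after quantile normalization (-0.30, adjusted p = 0.00033) and with library size as the reads in the table (-0.26, adjusted p = 0.0022), the alternatives running from 0.00033 to 0.98. Bok, a relative that can act without Bax and Bak1, stood at 34.5 to 35.0 RPKM against 32.9 to 34.5 RPKM (0.05, 95% interval -0.01 to 0.12, adjusted p = 0.12). Bok passed as higher without ATRX WT replicate 3 (0.07, adjusted p = 0.045) and as lower with library size as the reads in the table (-0.14, adjusted p = 0.0015, the alternatives running from 0.0015 to 0.30). Bak1 fell, from 46.1, 46.8 and 48.4 RPKM to 37.8, 34.7 and 34.5 RPKM (log2 fold change -0.40, SE 0.041, adjusted p = 1.3e-05).

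BH3-only genes, the sensors of the family, changed by more and in both directions. Of 8 listed, 7 were measured and 6 tested, of which 4 rose (66.7%) and 2 fell (33.3%), beside 43.6% and 45.9% of all genes tested. Among the rises, Hrk passed the filter through ATRX KO alone, which already required a difference. Bbc3, which encodes the p53 target Puma, stood at 17.5, 14.1 and 15.6 RPKM in ATRX KO and 3.63, 3.58 and 3.8 RPKM in ATRX WT (log2 fold change 2.10, SE 0.076, adjusted p = 1e-08). Pmaip1, which encodes Noxa and is also a p53 target (chromosome 18, 66458533 to 66465565), moved the other way, at 3.95, 4.37 and 4.15 RPKM against 11.5, 12.46 and 11.5 RPKM (-1.51, SE 0.057, adjusted p = 1.3e-08). Bbc3 was 3.81 ± 0.604 times Pmaip1 in ATRX KO and 0.311 ± 0.0211 times in ATRX WT, so the order of the pair was opposite in the cultures, in every library.

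Bcl2l11, which encodes Bim and answers to growth factor withdrawal, stood at 10.6, 10.7 and 10.7 RPKM in ATRX KO and 2.87, 2.83 and 3.10 RPKM in ATRX WT (log2 fold change 1.86, SE 0.053, adjusted p = 2.2e-09). Bid, which caspase-8 cleaves to link the receptor and mitochondrial routes, stood at 29.5, 26.1 and 27.1 RPKM against 12.6 RPKM in all 3 ATRX WT libraries (1.13, SE 0.046, adjusted p = 2.3e-08). Bid exons share 628 bases, 17.7% of their length, with Bcl2l13 on the opposite strand, and Bcl2l13 fell by 0.66. Hrk, a BH3-only gene best known from neurons, was near the filter, at 1.08, 1.03 and 1.17 RPKM against 0.399, 0.282 and 0.341 RPKM (1.70, SE 0.147, and 3.19 after quantile normalization). It rested on 129 to 174 reads a library in ATRX KO, against 59 to 78. Bad, which is held inactive by phosphorylation downstream of growth factors, stood at 11.8, 8.98 and 9.68 RPKM against 11.8, 12.1 and 12.48 RPKM (-0.26, adjusted p = 0.021). ATRX KO replicate 1 nearly reached ATRX WT, and the Bad call was lost without ATRX KO replicate 2 (adjusted p = 0.06) or 3 (0.067) and without ATRX WT replicate 2 (0.055) or 3 (0.075), the alternatives running from 0.0001 to 0.075. Bad was at -0.46 with library size as the reads in the table. Exons of Bad share 524 bases, 20.5% of their length, with Gpr137 on the opposite strand. Bmf, under the filter, held 50, 34 and 25 reads in ATRX KO and 98, 128 and 116 in ATRX WT (0.37, 0.294 and 0.273 against 0.577, 0.694 and 0.645 RPKM). The summed RPKM of the 7 BH3-only genes was 52.3%, 44.6% and 47.1% of that of the 4 pro-survival genes in ATRX KO. In ATRX WT it was 42.1%, 43.7% and 43.4%, and the lowest ATRX KO ratio lay close to the highest of ATRX WT. The BH3-only sum was 1.58 times and the pro-survival sum 1.42 times as high in ATRX KO. For the sum of all genes tested this was 1.19 times.

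**Figure D3:**
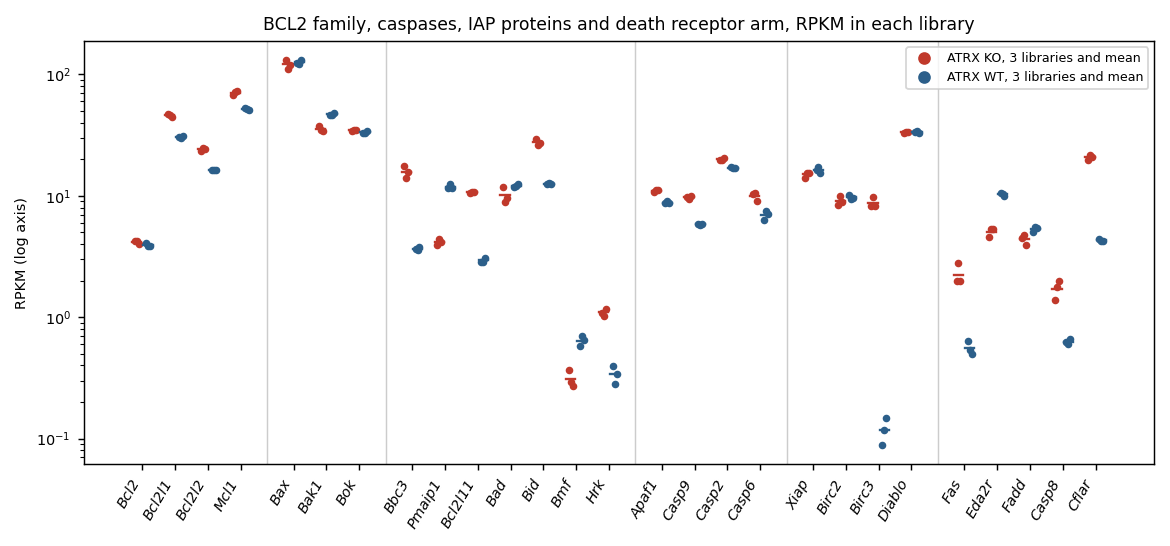
RPKM (log axis) of 27 measured genes of the BCL2 family, the caspases, the IAP proteins and the death receptor arm in each of the 3 ATRX KO and 3 ATRX WT libraries, with group means as bars. Bbc3 and Pmaip1 swap order between the groups, Birc3 spans 0.0883 to 9.72 RPKM, and the groups of Bcl2, Bax, Bok, Birc2 and Diablo overlap.

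All 4 genes of the apoptosome and caspase set rose, each by less than log2 1, where 43.6% of all genes tested rose and 89.5% passed. Casp9, the initiator that Apaf1 activates, stood at 9.83, 9.33 and 9.97 RPKM in ATRX KO and 5.84, 5.78 and 5.86 RPKM in ATRX WT (log2 fold change 0.74, SE 0.045, adjusted p = 3.5e-07). Casp6, an executioner that cleaves lamins, stood at 10.3, 10.5 and 9.03 RPKM against 6.33, 7.49 and 7.04 RPKM (0.52, SE 0.079, adjusted p = 0.00022). Apaf1, the scaffold of the apoptosome, stood at 10.7, 11.2 and 11.2 RPKM against 8.67, 9.06 and 8.66 RPKM (0.33, SE 0.041, adjusted p = 6.1e-05). With library size as the reads in the table the values were 0.32 for Casp6 and 0.13 for Apaf1. Casp2, the caspase of the Pidd1 complex, rose by 0.22 (adjusted p = 0.0002), a value of 0.12 after quantile normalization and a call lost with library size as the reads in the table (0.03, adjusted p = 0.5, the alternatives running from 2.8e-05 to 0.5).

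Of the IAP set, Birc3, which passed the filter through ATRX KO alone, differed widely and the other 3 did not pass. Birc3, the ubiquitin ligase cIAP2 of TNF receptor complexes (chromosome 9, 7848699 to 7873186), stood at 8.22, 9.72 and 8.29 RPKM in ATRX KO and 0.0883, 0.118 and 0.147 RPKM in ATRX WT. It held 697, 714 and 482 reads against 7, 11 and 14 reads (log2 fold change 6.24, SE 0.18, adjusted p = 2.4e-09). Its neighbour and close relative Birc2, which encodes cIAP1 and starts 36.1 kb away, stood at 8.43, 9.93 and 8.92 RPKM against 10.2, 9.47 and 9.53 RPKM and did not pass (-0.10, 95% interval -0.25 to 0.05, adjusted p = 0.17). Birc3 made up 49% ± 0.721 of the summed RPKM of the pair in ATRX KO and 1.2% ± 0.334 in ATRX WT. Birc2 passed as lower without ATRX KO replicate 2 (-0.17, adjusted p = 0.018) and with library size as the reads in the table (-0.30, adjusted p = 0.0023), the alternatives running from 0.0023 to 0.47.

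Xiap, the direct inhibitor of caspases, stood at 14.1, 15.4 and 15.5 RPKM in ATRX KO and 16.2, 17.2 and 15.6 RPKM in ATRX WT. The groups did not overlap, by a narrow margin, and Xiap missed the threshold at adjusted p = 0.053 (log2 difference -0.12). It passed as lower under 7 alternatives, with adjusted p = 0.048 in the fit with the replicate block and 0.00035 with library size as the reads in the table, the alternatives running from 0.00035 to 0.19. Diablo, the mitochondrial antagonist of the IAP proteins, stood at 32.9, 33.9 and 33.3 RPKM against 33.6, 34.0 and 33.1 RPKM (-0.01, 95% interval -0.07 to 0.05, adjusted p = 0.76). Diablo was lower after quantile normalization (-0.12, adjusted p = 0.0032) and with library size as the reads in the table (-0.21, adjusted p = 8.8e-05, the alternatives running from 8.8e-05 to 0.98).

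In the death receptor arm 3 of 5 genes rose (60%) and 2 fell (40%), beside 43.6% and 45.9% of all genes tested. Of the rises, Fas and Casp8 passed the filter through ATRX KO alone, which already required a difference. Cflar, which encodes the caspase-8 inhibitor c-FLIP, stood at 19.8, 21.9 and 20.9 RPKM in ATRX KO and 4.45, 4.28 and 4.25 RPKM in ATRX WT (log2 fold change 2.27, SE 0.049, adjusted p = 4.2e-10). Casp8, the initiator it restrains and its near neighbour on chromosome 1 (58711508 to 58758884 for Cflar and 58795374 to 58847503 for Casp8), stood at 1.38, 1.76 and 2.00 RPKM against 0.62, 0.6 and 0.658 RPKM (1.44, SE 0.141, adjusted p = 1e-05, and 2.47 after quantile normalization). Per length, Cflar was 12.4 ± 1.94 times Casp8 in ATRX KO and 6.92 ± 0.401 times in ATRX WT. Fas, the receptor itself, was low in both, at 1.98, 2.77 and 1.99 RPKM against 0.641, 0.540 and 0.496 RPKM (2.00, SE 0.158, adjusted p = 2.3e-06, and 3.04 after quantile normalization), from 73 to 129 reads against 33 to 41. Fadd, the adaptor, stood at 4.45, 4.78 and 3.97 RPKM against 5.08, 5.49 and 5.48 RPKM (-0.28, adjusted p = 0.0069), and quantile normalization ended that call (-0.09, adjusted p = 0.25, the alternatives running from 0.00027 to 0.25). Fadd was at -0.48 with library size as the reads in the table. Eda2r, a TNF receptor family member and p53 target, stood at 4.57, 5.38 and 5.31 RPKM against 10.6, 10.3 and 9.90 RPKM (-1.02, SE 0.069, adjusted p = 7.7e-07).

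The 2 members with the largest fold changes were set beside the tested genes next to them on the chromosome, a choice made after their values were seen. Over all genes tested 43.6% rose and 45.9% fell, with a median log2 fold change of -0.02. Of the 5 tested genes on each side of Plk3, 9 rose and 1 fell, with a median of 1.53. The nearest, Btbd19 at 8.2 kb, rose by 2.64, and Zswim5 at 256.6 kb fell by 6.94. Plk3 rose by more than each of these 10 genes. Around Birc3, 6 rose and 3 fell, with a median of 0.54. The matrix protease genes Mmp10, Mmp3 and Mmp13, at 370.8, 427.4 and 600.7 kb, rose by 8.24, 11.30 and 6.65, while Tmem123 and Yap1, which lie nearer, rose by 0.87 and 0.84. Around Gadd45a, the third by size, 3 rose and 5 fell, with a median of -0.32. Several of these neighbours had a mean log2 RPKM under the filter level of 0 in 1 group. They were Mmp10 (-4.19), Mmp3 (-4.09), Mmp13 (-2.70) and Tmem53 (-0.485) in ATRX WT, and Zswim5 (-5.59), Ndnf (-5.81) and Thnsl2 (-0.331) in ATRX KO. Their being tested rested largely on the other group, so their changes are given as a description.

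**Figure D4:**
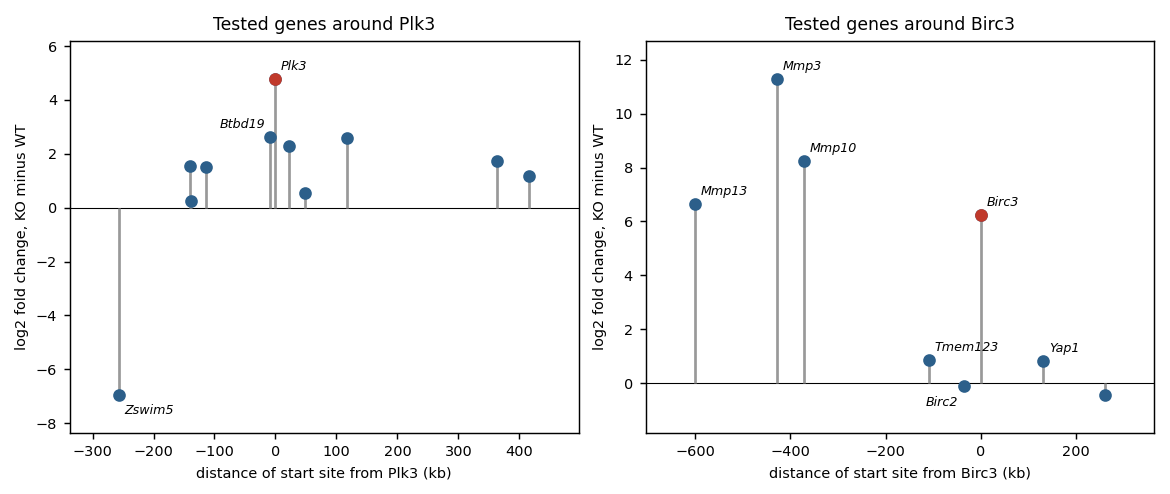
Log2 fold change (ATRX KO minus ATRX WT) of tested genes against the distance of their start site from that of Plk3 or Birc3, in kb, out to the matrix protease genes; the member is in red, and genes that the text names are labelled. Plk3 (4.79) stands among genes that mostly rose, and Birc3 (6.24) beside Birc2 (-0.10), with 3 Mmp genes further off. The Mmp genes in ATRX WT and Zswim5 in ATRX KO had mean levels under the filter.

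Other genes of the pathway, outside the 50, also went both ways. Of 20 further p53 network genes 17 were tested, with 8 rises (47.1%), 6 falls (35.3%) and a median of 0.01, beside 43.6% and 45.9% of all genes tested. Cdkn1a, the p21 inhibitor of cyclin-dependent kinases and the classic p53 target, stood at 116, 101 and 103 RPKM in ATRX KO and 130, 130 and 131 RPKM in ATRX WT (log2 fold change -0.29, SE 0.049, adjusted p = 0.00046). Sfn, which encodes 14-3-3 sigma and passed the filter through ATRX KO alone, held 185 reads against 1 over the groups, a ratio of 282 (95% counting interval 50.1 to 11210). The death receptor Tnfrsf10b rose by 3.54 and the lysosomal protein Dram1 by 1.68, while Trp53i11 fell by 3.72, Pidd1, scaffold of the Casp2 complex, by 1.55, and the spindle protein Ckap2 by 1.22.

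Of 31 further apoptosis genes 23 were tested, with 14 rises (60.9%), 6 falls (26.1%) and a median of 0.33. Over all genes tested 43.6% rose and 45.9% fell. The inflammatory caspase Casp4 rose by 4.29 and Casp12 by 2.68. Cycs, the somatic cytochrome c that seeds the apoptosome, and the mitochondrial protein Bcl2l13 each fell by 0.66.

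**Figure D5:**
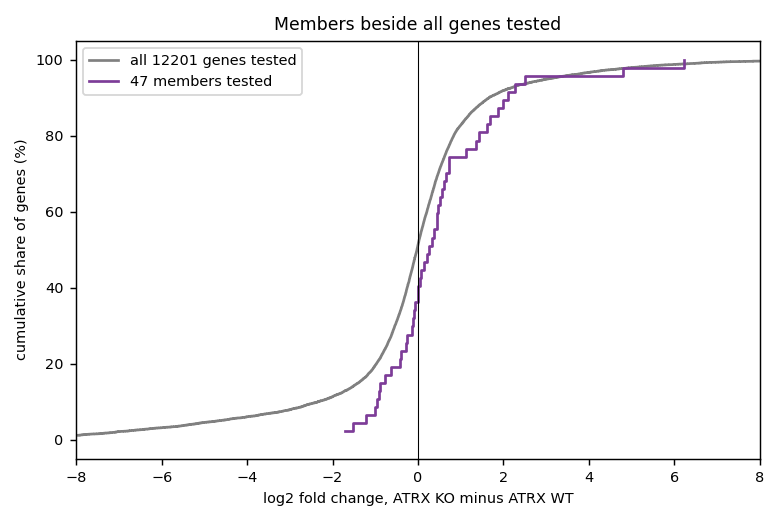
Cumulative share (%) of genes by log2 fold change (ATRX KO minus ATRX WT), for the 47 tested members and for all 12201 genes tested, shown from -8 to 8. The members' curve lies to the right of that of all genes around 0, with medians of 0.25 and -0.02, and it has no member below -1.71.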

How the data were processed

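The deposited values are log2 RPKM, 1 table with 6 libraries. Per the labels' protocols, total RNA (4 ug) went into a stranded mRNA kit, and sequencing was paired-end at 42 nt. The submitters' processing notes name edgeR 3.20.9, HTSeq 0.11.2, STAR 2.5.3a, Trim Galore and FastQC, with builds mm9 and mm10 and no role for either. Strand setting, scaling and low-gene filter are not given in the sources used here. The values fall on whole-read steps above a prior that averages 2 reads, and whole reads were recovered for 100% of genes (tolerance 0.0001 reads). RPKM values in the text are the antilog of the deposited values, prior included.

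A gene was tested where 3 or more libraries reached a log2 RPKM of 0. The fit used limma 3.58.1 under R 4.3.3 (empirical Bayes with trend, two-sided, 4 residual and 4.18 prior degrees of freedom). The fit and the recovery were tested on simulated data. Alternatives changed the filter, scaling, prior, trend, replicate block and libraries. Positions and exon overlaps are from GENCODE M21 (GRCm38), by symbol. Members and lists were chosen with earlier results of these data known. Per-library values are given for Trp53 and, by role, for up to 3 largest rises and 3 largest falls, and for other members where their values add to the account. Some genes that the naming rule covers are not reported here. Counting intervals cover counting error only.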

Additional observations from a re-analysis of the deposited data

How the results depend on the processing

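Over the 15 alternatives, 49 of 62 named genes kept their direction and their side of the threshold in every one in which they were tested. With library size as the reads in the table, 7 members fell by log2 1 or more in place of 4, and the other counts of members, of other pathway genes and of all genes stayed within 1.5 times those reported. That scaling turned Zmat3 to -0.054, Rrm2b to -0.188, Bcl2 to -0.116 and Bok to -0.144, and quantile normalization turned Bok to -0.065; of these Zmat3 alone was called in the fit reported. Leaving out 1 library at a time gave Rrm2b -0.026 to 0.038 and Diablo -0.020 to 0.001. The cause of these changes was not tested. The groups share replicate numbers in the titles alone, and deviations of same-numbered libraries correlated at -0.045, 0.051 and -0.038 for numbers 1 to 3, so the numbers do not pair the libraries; the replicate block gave 26 members higher and 15 lower (26 and 14 without it), and for all genes higher in ATRX KO 5287 and all genes lower in ATRX KO 5564. The limma voom fit on recovered reads was chosen after seeing the data and gave 26 and 15. The deposited unit is log2 RPKM, and the planned count-model tests were not run on the recovered reads. Depth limits Hrk, Fas, Casp8, Bmf and, in ATRX WT, Birc3 most, at 7 to 14 reads a library.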
